A study of Mus musculus with 2 samples.

Results

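The 41 genes described here mark the endothelium, the cell layer that lines blood and lymphatic vessels, and its subtypes. They were chosen by symbol from a list of genes known in the field to mark the whole endothelium or its capillary, arterial, venous and lymphatic parts, and all 41 were found among 55536 annotated gene identifiers. They fell into 10 surface and junction genes, 7 transcription factors, 9 capillary and angiogenic genes, 2 arterial genes, 6 venous, endocardial and activation genes, 6 lymphatic genes and Cytl1, a secreted protein kept apart. The tissue was heart of male B6CASTF1/J mice, a first-generation hybrid of C57BL/6J and CAST/EiJ, aged 14 days. Total RNA was sequenced in 2 stranded libraries made after ribosomal RNA reduction, each from 300 ng of RNA with spike-in RNAs. The libraries were labelled biological replicates 1 and 2 and formed 1 group, so the study had no treated, mutant or control group. The labels named 3 males and 1 donor label for both libraries and did not state whether animals were pooled, so the spread between the libraries may be technical.

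Endothelial cells are held together by the cadherin encoded by Cdh5, and their identity is maintained by ETS family factors such as ERG and FLI1 together with SOXF factors, the products of Sox7, Sox17 and Sox18. Arteries and veins are set apart early by the ligand ephrin-B2 and its receptor EphB4, and lymphatic endothelium arises from veins under the factor PROX1. Heart capillaries import fatty acids for the muscle, and at the age studied the coronary microvessels of the mouse are still growing with the heart.

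Egfl7 hosts a microRNA gene, Mir126a, in 1 of its introns, and its transcripts were divided among many annotated forms. The hairpin lies on mouse chromosome 2 at chr2:26591357-26591429 (plus strand, RefSeq, GRCm38.p6, the build called mm10), within Egfl7 at 26580014 to 26593120. It is shown with the miR-126a-3p strand in capitals, followed by 3 mature strands from this locus, each with its seed (bases 2 to 8, which pair with targets) in capitals. Mir126b lies on the minus strand of the same locus.
Mir126a hairpin: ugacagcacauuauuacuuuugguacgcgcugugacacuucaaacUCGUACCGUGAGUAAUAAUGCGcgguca
mmu-miR-126a-3p: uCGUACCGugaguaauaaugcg
mmu-miR-126b-3p: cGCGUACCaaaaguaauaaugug
mmu-miR-126b-5p: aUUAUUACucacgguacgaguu
The 3 strands shown had 3 different seeds. Both microRNA genes were listed at 0 counts in both libraries, and total RNA libraries of this kind are not a measure of mature microRNAs.

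RefSeq gives Egfl7 3 start sites, and the deposited transcript tables divided its expression among them and among further starts inside the gene. The 300 bases around each start (250 before, 50 after, plus strand, GRCm38.p6) are shown because the tables differ on which one is used. Capitals mark the words AGGAAG and CGGAAG, the core of ETS factor sites, or their reverse complements CTTCCT and CTTCCG.
Egfl7 promoter 1, chr2:26580833-26581132: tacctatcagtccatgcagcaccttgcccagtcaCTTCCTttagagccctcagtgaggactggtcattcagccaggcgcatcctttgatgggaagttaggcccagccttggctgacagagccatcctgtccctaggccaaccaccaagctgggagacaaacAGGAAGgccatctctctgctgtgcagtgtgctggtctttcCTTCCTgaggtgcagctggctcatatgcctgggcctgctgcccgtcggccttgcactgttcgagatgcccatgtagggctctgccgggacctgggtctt
Egfl7 promoter 2, chr2:26583615-26583914: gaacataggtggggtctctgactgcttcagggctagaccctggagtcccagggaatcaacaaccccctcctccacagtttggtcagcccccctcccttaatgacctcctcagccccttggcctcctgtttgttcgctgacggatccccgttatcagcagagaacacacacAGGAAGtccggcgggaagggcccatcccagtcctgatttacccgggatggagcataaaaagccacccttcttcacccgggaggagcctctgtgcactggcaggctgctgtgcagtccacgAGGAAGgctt
Egfl7 promoter 3, chr2:26586386-26586685: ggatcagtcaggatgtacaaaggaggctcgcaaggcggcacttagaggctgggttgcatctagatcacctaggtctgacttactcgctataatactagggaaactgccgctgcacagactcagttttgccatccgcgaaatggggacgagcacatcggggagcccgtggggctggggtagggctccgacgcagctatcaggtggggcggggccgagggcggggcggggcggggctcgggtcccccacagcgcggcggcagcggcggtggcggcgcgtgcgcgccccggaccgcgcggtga
The words occurred 3 times in the first window, 2 times in the second and 0 times in the third. Among the members, 25 had a promoter in the RefSeq table, and 17 of their 34 windows (50%) held at least 1 of these words on either strand. The same held for 46.5% of all 32851 promoter windows of this length, so the members' share was near that of all promoters.

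Levels are given as TPM, an abundance per length of transcript that is scaled to the same total in each library, as mean ± SD over the 2 libraries. At 1 TPM or more in both libraries, 38 of the 41 genes were detected; the exceptions were Selp, Sele and Ackr1. The median of the 41 members was 16.8 ± 0.785 TPM (n = 2), beside 9.84 TPM for the 11421 detected protein-coding genes, and 28 members lay above that value. The members together held 0.120% of all TPM in replicate 1 and 0.110% in replicate 2. In RNA of a tissue, fewer endothelial cells and less RNA per endothelial cell cannot be told apart.

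**Figure D1:**
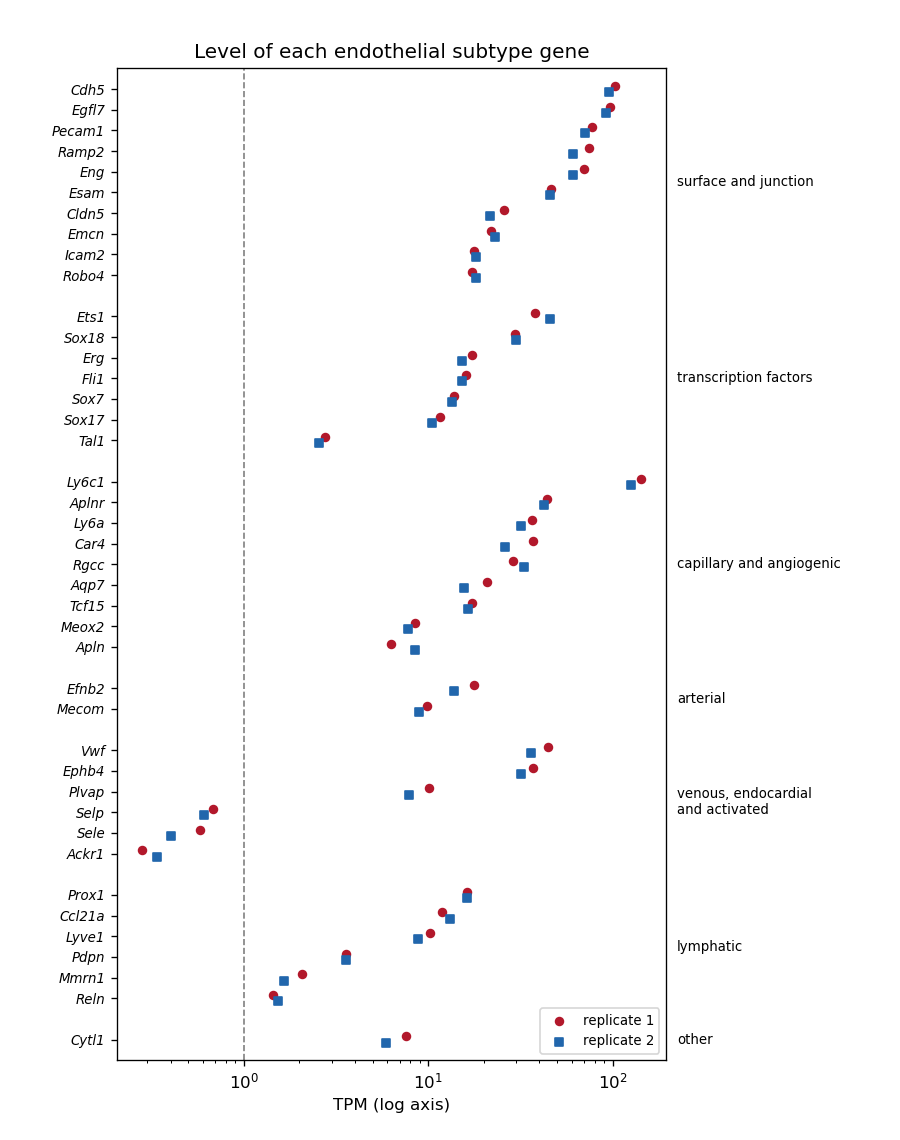
TPM of each of the 41 genes on a log axis, by class, with replicate 1 as circles, replicate 2 as squares and the detection threshold of 1 TPM as a dashed line. Ly6c1 is the highest gene, and Selp, Sele and Ackr1 lie left of the line in both libraries.

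The 10 surface and junction genes were all detected, between 17.7 and 99.2 TPM, and marked the tissue as one that contained endothelium. Cdh5, vascular endothelial cadherin, (chromosome 8, 104101625 to 104144511, plus strand) had 103 TPM in replicate 1 and 95.9 TPM in replicate 2, and ranked 598 among protein-coding genes by mean TPM. Egfl7, a secreted factor of growing vessels, had 97.1 TPM in replicate 1 and 91.97 TPM in replicate 2. Cdh5 was above Egfl7 within each library, but the ranges of these genes over both libraries overlapped. Pecam1, the adhesion molecule CD31, had 77.4 and 71.1 TPM in replicates 1 and 2. Ramp2, the partner of the adrenomedullin receptor, had 74.7 and 61.2 TPM, and Eng, endoglin, a co-receptor of the BMP pathway, had 70.0 and 60.8 TPM in the same order of libraries. Pecam1, Ramp2 and Eng formed a second tier whose neighbours overlapped, and Pecam1 lay below Cdh5 by 0.42 ± 0.02 in log2 TPM within a library (SD, n = 2).

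The other 5 surface genes were lower. Esam, an adhesion molecule of tight junctions, had 46.5 and 46.1 TPM in replicates 1 and 2, apart from its neighbours above and below. Cldn5, the endothelial claudin, had 25.9 TPM in replicate 1 and 21.7 TPM in replicate 2. Emcn, endomucin, a sialomucin of capillaries and veins, had 21.9 TPM in replicate 1 and 23.1 TPM in replicate 2, overlapped with Cldn5, and lay below Cdh5 by 2.14 ± 0.12 in log2 TPM (SD, n = 2). Icam2 averaged 17.9 ± 0.269 TPM and Robo4, an endothelial guidance receptor, 17.7 ± 0.544 TPM (n = 2 each), with overlapping values.

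Of the 7 transcription factors, 6 averaged over 10 TPM. Ets1 was the highest, with 38.1 TPM in replicate 1 and 45.7 TPM in replicate 2. Erg had 17.3 and 15.2 TPM in replicates 1 and 2, and Fli1 had 16.1 and 15.2 TPM. Erg and Fli1 differed by 0.05 ± 0.07 (SD, n = 2) in log2 TPM within a library, so their levels could not be told apart, whereas Ets1 exceeded Erg by 1.36 ± 0.31 in log2 TPM. Ets1 is also a factor of lymphocytes, and the 2 libraries differed in T cell and thymus markers, as given with the library ratios.

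The SOXF genes stood in a fixed order in both libraries. Sox18 had 29.7 TPM in replicate 1 and 30.1 TPM in replicate 2. Sox7 had 13.8 and 13.4 TPM, and Sox17, the member tied to arterial identity, had 11.65 and 10.52 TPM. Sox18 exceeded Sox17 by 1.42 ± 0.12 and Sox7 by 1.13 ± 0.04 in log2 TPM, and Sox7 exceeded Sox17 by 0.29 ± 0.08 (SD, n = 2 each). The order of Sox7 and Sox17 rested on the RSEM-style table, since in the kallisto-style table the difference was 0.01. Tal1, a factor shared by blood and endothelial lineages, was the lowest factor at 2.67 ± 0.141 TPM (n = 2).

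The 9 capillary and angiogenic genes were all detected, with a class median of 27.4 ± 1.92 TPM. Ly6c1, a surface antigen of microvessels on the minus strand of chromosome 15 (75044018 to 75048830), was the highest of all 41 genes at 143 TPM in replicate 1 and 126 TPM in replicate 2, above Cdh5 in both. Ly6a, or Sca-1, had 36.7 and 31.9 TPM in replicates 1 and 2, lower than Ly6c1 by 1.97 ± 0.01 in log2 TPM (SD, n = 2). Both levels depend on how reads were divided within the Ly6 family: 46.8% of the distinct 31-base words in Ly6c1 transcripts and 31.9% of those in Ly6a transcripts also occurred in transcripts of other genes. Ly6c2, which held 33% of the words of Ly6c1, had 4.98 and 5.45 TPM in replicates 1 and 2, against which Ly6c1 was higher by 4.66 ± 0.22 in log2 TPM.

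The apelin pair was uneven. Aplnr, the apelin receptor, had 43.9 TPM in replicate 1 and 42.55 TPM in replicate 2. Apln, its ligand and a gene of sprouting endothelium, had 6.25 TPM in replicate 1 and 8.45 TPM in replicate 2. Apln lay below Aplnr by 2.56 ± 0.34 in log2 TPM within a library (SD, n = 2), which is 5.88-fold in TPM.

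Car4, carbonic anhydrase 4 at the capillary surface, had 37.1 TPM in replicate 1 and 26.1 TPM in replicate 2, the largest difference in TPM relative to its level among the members above 10 TPM. Rgcc, a cell cycle regulator enriched in capillaries, had 28.8 and 32.9 TPM in replicates 1 and 2. Aqp7, a glycerol channel of capillaries and adipocytes, had 20.97 and 15.65 TPM. Tcf15 and Meox2 encode partner factors of the fatty acid uptake programme of heart capillaries. Tcf15 averaged 16.9 ± 0.643 TPM and Meox2 8.12 ± 0.502 TPM (n = 2 each), so that Tcf15 was the higher by 1.05 ± 0.03 in log2 TPM. Other capillary genes not among the 41 were present too, all 10 of a list of 10, led by the lipid handling genes Cd36 and Fabp4 at 755 and 481 TPM in replicate 1 and 653 and 391 TPM in replicate 2, although Cd36 and Fabp4 are also expressed by other heart cells.

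Both arterial genes were detected. Efnb2, ephrin-B2, had 17.7 TPM in replicate 1 and 13.7 TPM in replicate 2, and Mecom, a factor of arterial endothelium, had 9.86 and 8.96 TPM. Of 10 other arterial genes, 9 were detected, with Cxcl12 at 55.7 and 54.8 TPM and Nrp1 at 52.9 and 52.3 TPM in replicates 1 and 2 the highest, while Bmx had 1.18 and 0.96 TPM.

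The class of venous, endocardial and activation genes split into 2 groups by level. Vwf, von Willebrand factor, had 44.4 TPM in replicate 1 and 36.1 TPM in replicate 2. Ephb4 had 37.2 and 31.8 TPM in replicates 1 and 2, above its ligand gene Efnb2 by 1.14 ± 0.10 in log2 TPM (SD, n = 2). Plvap, the diaphragm protein of fenestrae and caveolae, had 10.1 TPM in replicate 1 and 7.90 TPM in replicate 2, lower than Cdh5 by 3.46 ± 0.18 in log2 TPM.

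The 3 adhesion and chemokine-binding genes of venules were the lowest members and the only ones under 1 TPM in both libraries. Selp, P-selectin, had 0.68 TPM in replicate 1 and 0.61 TPM in replicate 2, from 62 and 65 counts. Sele, E-selectin, which is induced on activated endothelium, had 0.58 and 0.40 TPM, from 50 and 41 counts. Ackr1, the atypical chemokine receptor of venules, had 0.28 and 0.34 TPM, from 9 and 13 counts. Selp and Sele differed by 0.35 ± 0.22 in log2 TPM within a library (SD, n = 2). Among other venous genes, Nrp2 had 16.9 and 23.3 TPM and Nr2f2, the factor COUP-TFII, had 11.8 and 10.2 TPM in replicates 1 and 2.

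The 6 lymphatic genes were all detected, with a class median of 6.55 ± 0.481 TPM. Prox1 had 16.2 TPM in each library and lay below Cdh5 by 2.60 ± 0.07 in log2 TPM (SD, n = 2). Prox1 is also expressed by heart muscle cells, whose marker genes summed to 32061 TPM in replicate 1 and 30577 TPM in replicate 2, and the source of its reads was not tested. Lyve1, the hyaluronan receptor, had 10.2 and 8.82 TPM in replicates 1 and 2, below Prox1 by 0.77 ± 0.14 in log2 TPM (SD, n = 2). Lyve1 is shared with tissue macrophages, of which 10 of 12 markers were detected, with sums of 83.8 TPM in replicate 1 and 99.1 TPM in replicate 2, and their part in the Lyve1 level was not tested.

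Pdpn, podoplanin, averaged 3.60 ± 0.00707 TPM, Mmrn1, multimerin, 1.87 ± 0.297 TPM, and Reln, reelin, 1.49 ± 0.0636 TPM (n = 2 each). These 3 genes did not overlap with each other and were the lowest detected lymphatic members, with Reln below Prox1 by 3.37 ± 0.06 in log2 TPM (SD, n = 2). Pdpn is also made by epicardial cells, and 7 of 8 epicardial markers were detected, Msln at 12.9 and 12.3 TPM in replicates 1 and 2 the highest. Of 4 other lymphatic genes, 3 were detected. Itga9 had 32.5 TPM in replicate 1 and 36.1 TPM in replicate 2, and Nr2f2, shared with veins, had 11.8 and 10.2 TPM, both above Lyve1. The others were lower, with Flt4, the VEGF-C receptor, at 4.83 and 4.74 TPM and Foxc2 at 1.42 and 0.98 TPM in replicates 1 and 2.

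Ccl21a, the chemokine that draws dendritic cells and T cells to lymphatic vessels, had 11.9 TPM in replicate 1 and 13.1 TPM in replicate 2 under its identifier on chromosome 4. Its level is uncertain because mouse chromosomes carry near-identical copies. A share of 80.6% of its 31-base words occurred in transcripts of Gm21541, and a second Ccl21a identifier on a separate scaffold had 0.38 and 1.30 TPM. Gm21541 was listed at 0 TPM in both libraries of the RSEM-style table and at 10.3 and 12.4 TPM in the kallisto-style table. Gm13304, another copy, had 10.2 and 9.30 TPM in the RSEM-style table, from 230 and 252 expected counts with a posterior SD of 47.3 and 61.7 counts. Cytl1, the remaining member, had 7.62 TPM in replicate 1 and 5.89 TPM in replicate 2.

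Ordered by mean TPM, the 41 genes formed 40 neighbouring pairs, of which 23 overlapped between the libraries. Steps without overlap lay below Ly6c1, Egfl7, Eng, Esam, Sox18, Emcn, Fli1, Sox7, Ccl21a and Sox17, and at every step from Cytl1 down to Ackr1. The SD was a median of 7.67% of the mean, at most 26.0% (Sele), and no more than 5% for 14 genes.

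The libraries were compared by their counts, replicate 1 over replicate 2, with an exact binomial test that assumes counting error only. It compares these libraries and not conditions. All 41 members could be tested. Of them 16 (39.0%) were higher in replicate 1, where 11.6% of the 16611 genes tested were, and 3 (7.32%) were lower, where 10.4% of all genes tested were. Genes with more counts pass this test at smaller ratios. Of those whose counts reached 100 in both libraries, 15.4% were higher and 10.5% lower in replicate 1. Of the 38 members with such counts, 16 (42.1%) were higher. That floor does not match the depth of the members, 20 of which had 1000 or more counts in both libraries. No member passed at 2-fold or more, where 3.2% of all genes tested did. At any ratio, 23 members had an unadjusted exact binomial p under 0.05, a count without a matching share over all genes tested. The median log2 ratio was 0.14 over the members and 0.00 over all genes tested.

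All 19 calls rest on counting error alone. When a coefficient of variation of 0.1 or 0.2 between libraries was assumed in edgeR's exact test, 0 members passed, and 2 and 0 members had an unadjusted p under 0.05. Over all genes, 474 and 230 passed under these assumptions.

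**Figure D2:**
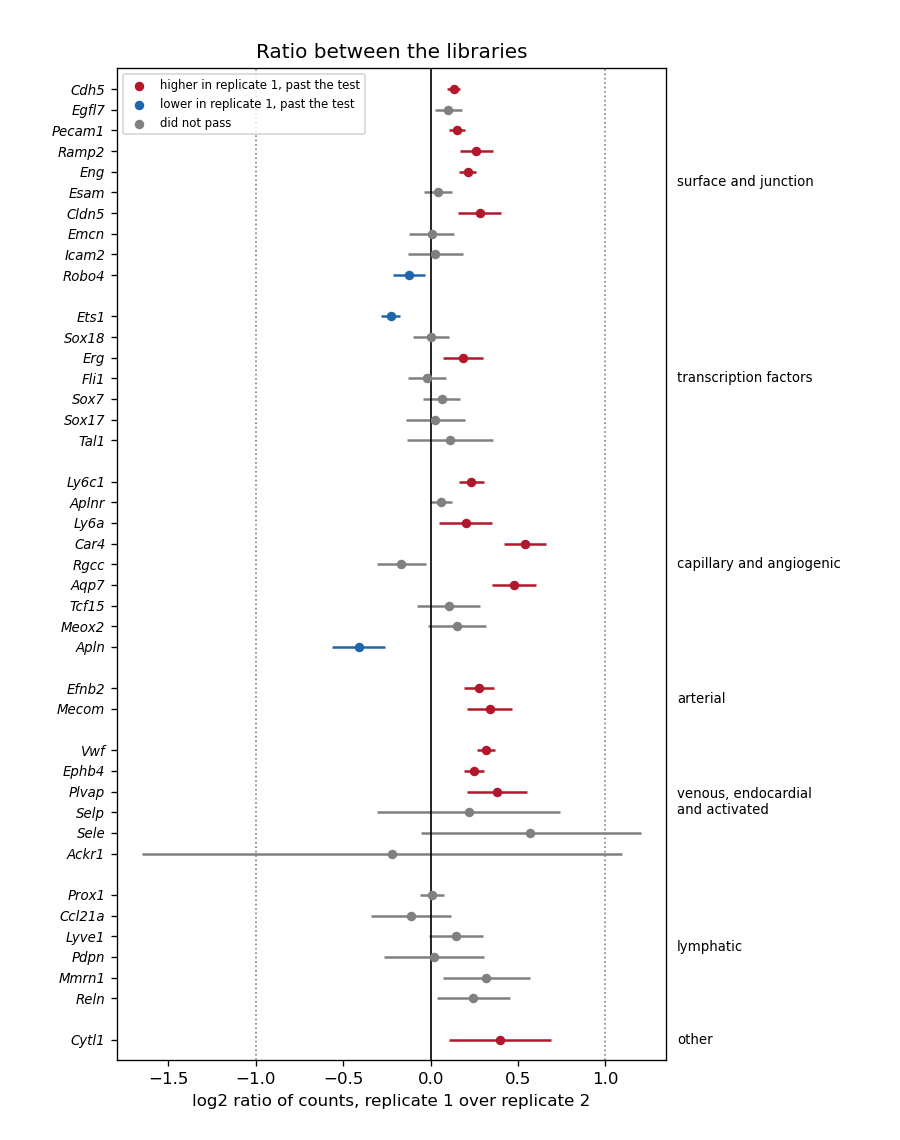
Log2 ratio of counts, replicate 1 over replicate 2, for each member with its 95% exact interval, coloured by the outcome of the exact binomial test; dotted lines mark 2-fold. Car4 and Aqp7 lie farthest right and Apln farthest left among genes past the test, and all estimates lie between the dotted lines.

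Higher in replicate 1 were 5 of 10 surface genes, 1 of 7 transcription factors, 4 of 9 capillary genes, both arterial genes, 3 of 6 venous and endocardial genes, 0 of 6 lymphatic genes and Cytl1. The largest ratios were those of Car4, with 1246 counts in replicate 1 and 1043 in replicate 2 (log2 ratio 0.54, 95% interval 0.42 to 0.66, exact binomial adjusted p = 1.48e-17), and of Aqp7, with 1077 and 943 counts (0.48, 0.35 to 0.60, exact adjusted p = 3.6e-12). Both exceed the raw ratio of counts because replicate 2 was the deeper library, with 46391250 expected counts, against 39334380 in replicate 1.

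Cytl1 (log2 ratio 0.39), Plvap (0.38), Mecom (0.34), Vwf (0.32) and Cldn5 (0.28) followed. Cytl1 lost its call under total count scaling, without a filter and with kallisto-style counts, and the ratio of Mecom was 0.14 in TPM. The remaining called genes ran down to Cdh5 at 0.13. Cdh5 had 11712 counts in replicate 1 and 13022 in replicate 2, the largest counts of any member, so that a 1.10-fold difference passed the exact test with an adjusted p of 1.92e-11. Efnb2 and its receptor gene Ephb4 were both higher, with log2 ratios of 0.28 and 0.25.

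Apln, Ets1 and Robo4 were lower in replicate 1. Apln had 583 counts in replicate 1 and 945 in replicate 2, a log2 ratio of -0.41 (95% interval -0.56 to -0.26, exact adjusted p = 7.96e-07). Ets1 had 4904 and 7003 counts in replicates 1 and 2, a log2 ratio of -0.23 (-0.28 to -0.18, exact adjusted p = 4.78e-16). Robo4 had a log2 ratio of -0.12. Aplnr, the receptor of the Apln product, did not pass (log2 ratio 0.06, exact adjusted p = 0.173).

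Of the 22 members that did not pass, Egfl7 and Mmrn1 came nearest, with exact adjusted p of 0.0502 and 0.0530. With kallisto-style counts Mmrn1 passed, at a log2 ratio of 0.36, and Rgcc passed as lower in replicate 1, at -0.20, as it did under total count scaling, at -0.21. The lymphatic genes had log2 ratios between -0.11 and 0.32, and Prox1 had 0.01 with a 95% interval of -0.06 to 0.08. For Ackr1 the interval ran from -1.65 to 1.09, so at its 9 and 13 counts a 2-fold difference was not detectable. Reln had a log2 ratio of 0.24 in counts, but -0.09 in TPM, as the mean transcript length given to it was 8615 bases in replicate 1 and 6992 bases in replicate 2.

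Markers of some other cell types differed between the libraries by more than any member. Of 12 T cell and thymus markers, 11 were lower in replicate 1, and the list summed to 1.66 TPM in replicate 1 and 65.9 TPM in replicate 2, with Rag2 and Ptcra at 0 TPM in replicate 1 and Rag1 at 0.02 and 11.96 TPM. Ets1 was lower in the same direction. All 5 atrial markers were higher in replicate 1 and summed to 1614 TPM in replicate 1 and 500 TPM in replicate 2. The endocardial gene Npr3 had 15.9 TPM in replicate 1 and 10.4 TPM in replicate 2, but Nfatc1 had 6.27 and 6.52 TPM. Vwf and Plvap were higher in the same direction as the atrial markers and Npr3. The part of these tissues in the members' ratios was not tested.

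Adipocyte markers were higher in replicate 1 in 7 of 8 cases and lower in 1, with sums of 63.8 TPM in replicate 1 and 40.9 TPM in replicate 2. The most uneven was Ucp1, at 9.76 and 0.32 TPM in replicates 1 and 2. These sums differed in the same direction as Aqp7 and Car4, but 34 of the 41 members had a positive log2 ratio. The part of adipocytes was not tested. Platelet markers, whose cells also hold Vwf and Selp, had 3 of 8 detected, with sums of 20.8 TPM in replicate 1 and 16.6 TPM in replicate 2. Of the 10 other capillary genes, 9 were higher in replicate 1, with a median log2 ratio of 0.16, and so were 4 of 5 fibroblast and 4 of 5 pericyte markers. Heart muscle markers went the same way in 4 of 6 cases, with 1 lower, and smooth muscle markers in 3 of 4, with 1 lower. Over all genes tested, 11.6% were higher and 10.4% lower. Among 10 other arterial genes, 2 were higher and 1 lower in replicate 1, with a median log2 ratio of 0.06. Of 4 other venous genes, 1 was higher and 1 lower, with a median of -0.01. Of 4 other lymphatic genes, 2 were higher and Itga9 was lower. Of 12 macrophage markers, 1 was higher and 5 were lower. Erythroid markers were detected in 5 of 7 cases, led by Hbb-bs at 10772 TPM in replicate 1 and 10204 TPM in replicate 2, with Klf1 at 0 counts, and 3 were higher and 2 lower. None of 4 lung epithelium markers was detected, with Sftpb and Sftpa1 at 0 counts.

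**Figure D3:**
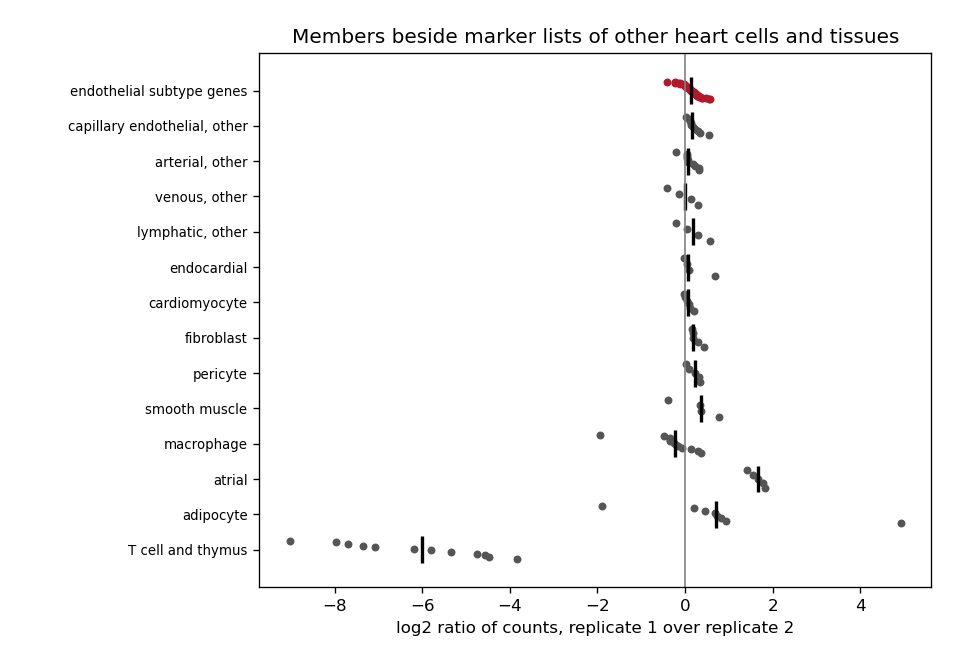
Log2 ratio of counts, replicate 1 over replicate 2, of the 41 members (red) and of the genes of 13 marker lists (grey), each point a gene and each bar the median of its row. Every ratio includes 0.5 added to each count. The members lie between -0.41 and 0.57, beside 0.01 to 0.54 for the other capillary list and 0.02 to 0.34 for the pericyte list. The atrial list lies at 1.42 to 1.82, the adipocyte list at -1.90 to 4.92 and the T cell list at -9.02 to -3.84.

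The deposited transcript tables showed how much of each gene's TPM came from transcripts annotated as protein-coding. In the RSEM-style table, noncoding transcripts held under 1% of TPM for 21 members and over 10% for 8 members. These were Vwf, Egfl7, Ramp2, Reln, Aqp7, Lyve1, Robo4 and Selp. In that table Vwf had the largest noncoding share, 54.9% in replicate 1 and 54.7% in replicate 2. A single short transcript, Vwf-209, held 27.7% of its TPM. The kallisto-style table also gave noncoding transcripts over 10% in further members. Its protein-coding shares were 59.8% for Car4, 79.4% for Pecam1, 84.5% for Mmrn1 and 88.1% for Mecom.

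The tables also differed on the level of Vwf. It averaged 40.3 TPM in the RSEM-style table, 26.9 TPM in the kallisto-style table, and 18.2 TPM when protein-coding transcripts of the RSEM-style table alone were summed. The kallisto-style table gave protein-coding transcripts 81.9% of Vwf TPM, and Vwf-209 1.34%. Vwf was 1 of 3 members lower in the kallisto-style table, with Aplnr and Ly6a; the other 38 were higher. The median ratio of the kallisto-style to the RSEM-style level was 1.18 over the 41 members and 1.20 over detected protein-coding genes. Cdh5 reached 159 TPM and Car4 53.4 TPM there, 1.60 and 1.69 times their RSEM-style means.

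**Figure D4:**
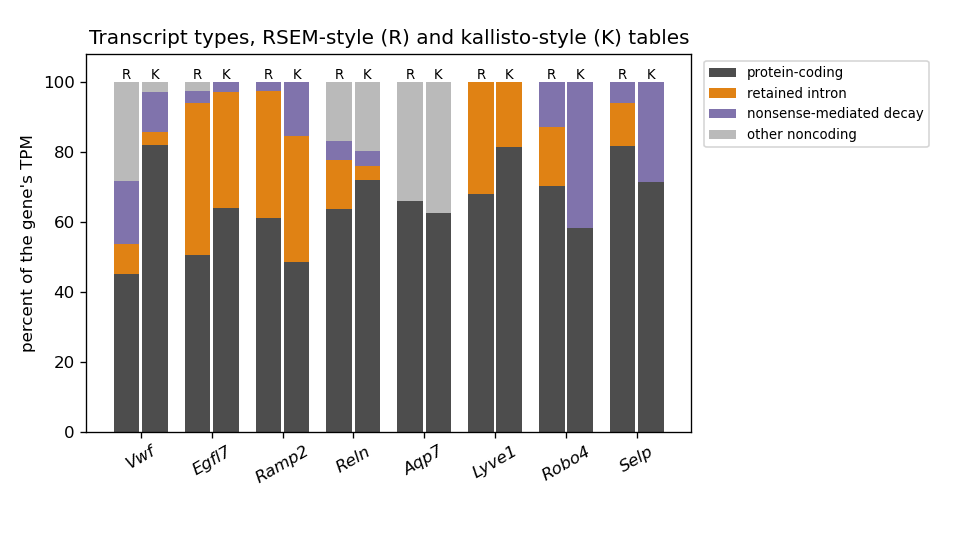
Percent of each gene's TPM by transcript type, mean of both libraries, in the RSEM-style (R) and kallisto-style (K) tables. The 8 members shown had over 10% noncoding share in the RSEM-style table. Retained introns are prominent in Egfl7, Ramp2 and Lyve1 in both tables, while the split of Vwf and Robo4 depends on the table.

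Ramp2 held 36.4% of its TPM in retained-intron transcripts in the RSEM-style table and 35.97% in the kallisto-style table. A share of 31.7% of its 31-base words occurred in transcripts of Vps25, a gene that overlaps it on the same strand of chromosome 11. The levels of this pair therefore depend on how reads were divided between them. Ramp2 had 1780 and 1810 expected counts in replicates 1 and 2, with a posterior SD of 11.5 and 12.9 counts. Lyve1 held 31.9% in 1 retained-intron transcript in the RSEM-style table and 18.6% in the kallisto-style table. For Aqp7, noncoding transcripts held about a like share in both tables, 33.9% and 37.5%, but through different transcripts, Aqp7-204 in the RSEM-style and Aqp7-203 in the kallisto-style table. Ackr1 shared 23% of its words with the overlapping gene Cadm3, and the antisense gene Prox1os, at 1.17 and 1.35 TPM in replicates 1 and 2, was low beside Prox1.

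Of the 31 members with several annotated transcripts, 24 had the same leading transcript in both tables and 7 did not: Pecam1, Egfl7, Robo4, Erg, Mecom, Ly6a and Ly6c1. For Erg, the RSEM-style table gave 56.6% of TPM to transcripts that start within 100 bases of the innermost RefSeq start and 0% to the outermost, whereas the kallisto-style table gave 15.3% and 41.4%. Mecom also divided, with 16.9% at its outer and 21.6% at its inner RefSeq start in the RSEM-style table. Start site use of these genes could therefore not be settled from these tables.

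Egfl7 had 19 annotated transcripts, and none held over 25% of its TPM in the mean of both libraries. The second RefSeq start, whose sequence is given above, took 32.3% of TPM in the RSEM-style table and 7.78% in the kallisto-style table. The first took 0.735% and 21.1%, and the third 4.23% and 32.9%, in the same order of tables. The leading transcript was Egfl7-202, from the second start, in the RSEM-style table and Egfl7-212, from the first, in the kallisto-style table.

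Around the Mir126a hairpin the tables also differed. Transcripts spanning it took 50.1% of Egfl7 TPM in the RSEM-style table and 39.5% in the kallisto-style table. Those ending before it took 9.4% and 32.9%, and those starting after it 40.5% and 27.6%, in the same order of tables. Retained-intron transcripts, not all of which lie at the hairpin, took 43.3% and 33.2%. The hairpin sequence was found in 1 of the 19 transcripts, the retained-intron transcript Egfl7-206, which held 12.2% in replicate 1 and 13.4% in replicate 2 in the RSEM-style table, and 9.86% and 11.4% in the kallisto-style table. Its exon runs 134 bases past the hairpin.

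A further set of 3 transcripts begins just past the hairpin. Egfl7-211, Egfl7-208 and Egfl7-214 start 5, 6 and 17 bases after its last base. Together they took 24.9% of Egfl7 TPM in replicate 1 and 26.0% in replicate 2 in the RSEM-style table, from 506 and 600 expected counts, and 16.4% and 16.6% in the kallisto-style table. Their share was thus near equal in the libraries within each table. In the mean of both libraries, Egfl7-211 had 12.6% in the RSEM-style and 3.31% in the kallisto-style table. Egfl7-214 had 12.8% and 11.5%.

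**Figure D5:**
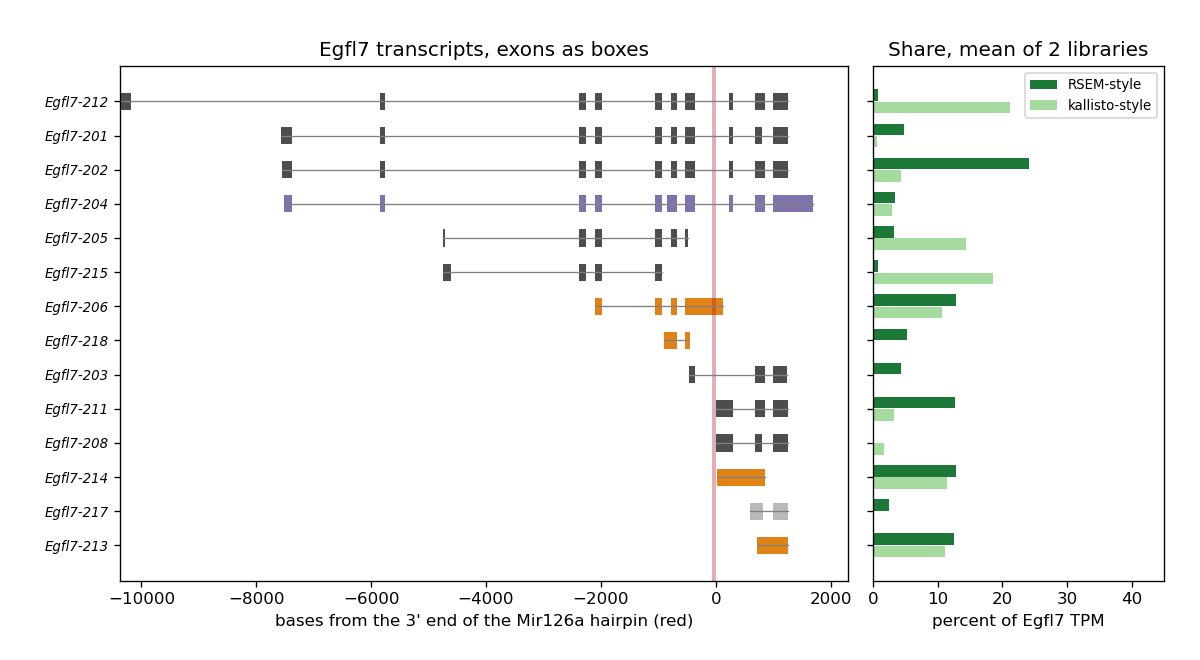
Left, annotated Egfl7 transcripts with a share of 1% or more in either table, drawn by distance in bases from the 3′ end of the Mir126a hairpin (red band); exons are boxes, protein-coding in dark grey, retained intron in orange, nonsense-mediated decay in purple and other noncoding in light grey. Right, percent of Egfl7 TPM in each table, mean of 2 libraries; Egfl7-211, Egfl7-208 and Egfl7-214 begin just right of the band, and the exon of Egfl7-206 crosses it.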

How the data were processed

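Reads were assigned by the authors to mm10 with annotation M21, per the deposited readme; no version of the authors' tools is stated in these sources. The RSEM-style tables contain, per the file headers, expected counts, posterior SDs of those counts (other), TPM, and for each transcript its percent of the TPM of its gene. The deposited kallisto-style tables contain estimated counts with TPM. Depth was 39334380 and 46391250 expected counts. GENCODE M21 gave symbols, types and coordinates, RefSeq the sequences.

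The values reported are gene TPM, with SD over 2 libraries. Pairs use log2(TPM + 0.1). Ratios of counts between the libraries include 0.5 added to each count. Expected counts were rounded and compared by a 2-sided exact binomial test, scaled by TMM (edgeR 4.0.16, R 4.3.3), for genes that reached 10 counts in both libraries or a sum of 20, Benjamini-Hochberg adjusted over all genes at 0.05. This test was checked on simulated counts that held counting error only, the case it assumes, so the check does not cover variation between libraries. Intervals (95%, Clopper-Pearson) cover counting error only. DESeq2 1.42.0 gave alternative size factors. Every member is named; from the comparison lists, genes are drawn, without naming all, from the 4 highest and those at 0, and, chosen after their values were seen, Bmx, Rag2 and Ptcra. Shared sequence was counted over 31-base words on the transcript strand. The members and lists were chosen with earlier results of these data known.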

Additional observations from a re-analysis of the deposited data

How the results depend on the processing

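The count of detected members was 38 in the main and kallisto-style tables, 37 over protein-coding transcripts only, and 39 and 36 at 0.5 and 2 TPM; without either replicate it stayed at 38. The median of the members was 16.8 TPM as reported, 20.2 TPM in the kallisto-style table, 15.9 TPM over protein-coding transcripts and 39.7 TPM where TPM was rescaled over nuclear protein-coding genes, and ranged from 16.2 to 17.3 TPM when 1 replicate was left out. The count of members past the test between the libraries was 19 in the main setting. It was 16 to 19 under other scalings, without a filter and with kallisto-style counts. Under both assumed coefficients of variation, 0.1 and 0.2 (edgeR's exact test), it was 0, where 474 and 230 of all 16611 genes tested passed. In that test, 2 and 0 members had an unadjusted p under 0.05. No member passed at 2-fold under any setting. No ratio reversed among called genes, and Ly6a, Cytl1, Erg and Robo4 lost their calls under at least 1 scaling, filter or table, while Mmrn1 gained one with kallisto-style counts, and Rgcc with those and under total count scaling. No paired analysis was possible because both libraries belong to the same group. Of the members' levels, 35 moved by more than the SD in the kallisto-style table and 12 over protein-coding transcripts. Of the 18 pairs, none changed sign, and 11 moved by more than the SD in the kallisto-style table. Ratios of genes with few counts, such as Ackr1, are limited by depth.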
